A study of Mus musculus with 211 samples.

Results

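A set of 10 genes known from the supporting cells (SCs), the tectorial membrane and the epithelium of the cochlea were followed through 211 single cells sorted as adult cochlear SCs. They were the tectorial matrix genes *Otog*, *Tecta* and *Tectb*, the gap junction genes *Gjb2* and *Gjb6*, the glutamate transporter gene *Slc1a3*, and the epithelial adhesion and keratin genes *Cdh1*, *Epcam*, *Krt8* and *Krt18*. The 10 genes were given as a list and found by gene identifier, and all 10 are among the 48709 genes of the count table. The cells came from Lfng-EGFP mice on a CD1 background, at P60 (postnatal day 60) in captures of 3 to 24 cells and at P120 (postnatal day 120) in captures of 16 to 37 cells. No other genotype or treatment was compared, so every cell carried the transgene. GFP in this line is driven by a bacterial artificial chromosome with *Lfng* sequences, Tg(Lfng-EGFP)HM340Gsat, and reports that transgene rather than a cell type. Cells were sorted by GFP against a wild type gate, with propidium iodide to leave out dead cells, and captured on the Fluidigm C1, a chip that isolates single cells. Each capture pooled mice of either sex, so the capture is the replicate, with 8 captures at P60 and 4 at P120. The captures are named here as in the cell table, and so are the 3 sequencing runs, S047, S059iso1 and S059iso2.

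The tectorial membrane is a sheet of extracellular matrix over the hair cells, and the SCs beneath it form the epithelium that holds the hair cells. *Tecta* and *Tectb* encode alpha- and beta-tectorin, and *Otog* encodes otogelin, all matrix proteins of the acellular membranes of the inner ear. *Gjb2* and *Gjb6* encode connexin 26 and connexin 30, which form the gap junctions between cochlear SCs and are known from inherited deafness. *Slc1a3* encodes GLAST, which takes up glutamate. E-cadherin (*Cdh1*) and EpCAM (*Epcam*) join epithelial cells, and keratins 8 and 18 (*Krt8*, *Krt18*) pair into the filaments of simple epithelia.

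On GRCm38, *Otog* lies at chr7:46240987-46311434, *Tecta* at chr9:42329619-42399929 and *Tectb* at chr19:55180733-55196313. *Gjb2* (chr14:57098600-57104702) and *Gjb6* (chr14:57123303-57133611) are neighbours on the minus strand with 18.6 kb between them. *Krt8* (chr15:101996698-102004482) and *Krt18* (chr15:102028180-102032027) are also neighbours, with 23.7 kb between them on opposite strands. *Slc1a3* lies at chr15:8634124-8710764, *Cdh1* at chr8:106603351-106670246 and *Epcam* at chr17:87635979-87651129. In the annotation used here *Tecta* overlaps the antisense gene *Gm47629*, *Krt8* overlaps *Gm36026*, *Slc1a3* overlaps *Gm37310* and *Tectb* overlaps *Mir6715*. No strand setting of the counting is given in the sources used here, so reads on shared stretches cannot be told apart. The 100 bases before the RefSeq starts (GRCm38.p6) of the tectorial trio are shown because the trio was found in the same few cells. *Otog* is read from chr7:46240887-46240986 on the plus strand, *Tecta* from chr9:42401691-42401790 on the minus strand at the more upstream of its starts, and *Tectb* from chr19:55180626-55180725 on the plus strand.

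Otog: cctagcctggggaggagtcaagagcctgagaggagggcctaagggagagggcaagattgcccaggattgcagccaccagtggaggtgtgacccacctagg
Tecta: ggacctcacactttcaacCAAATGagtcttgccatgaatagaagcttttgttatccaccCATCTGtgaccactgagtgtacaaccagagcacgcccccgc
Tectb: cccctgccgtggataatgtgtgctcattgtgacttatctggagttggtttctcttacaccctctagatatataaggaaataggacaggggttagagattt

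The capitals mark E-box letters (CANNTG, which read the same on both strands). The *Tecta* window held a pair of them and the *Otog* and *Tectb* windows held none, while 34.4% of all 32851 promoter windows of 100 bases held at least 1. The exact letters TATAAA, a form of the TATA box, were searched on both strands. They were in none of the 3 windows shown and in 5.56% of all windows. The same was true of the motif of the factor NF-Y, searched on both strands as CCAAT, which 18.9% of all windows held. It was also true of the motif of the factor Sp1, searched on both strands as GGGCGG, which 24.7% of all windows held. The trio thus shared none of these exact letters. Looser forms of the motifs were not searched, and the *Tectb* window holds tatataag, which is close to TATAAA.

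The cells held between 41 and 5361476 reads on genes (median 736455), and capture 10c stood apart with a median of 451 reads over its 13 cells. The cells were labelled as adult cochlear SCs. At 10 or more reads, *Sox2*, *Lgr5*, *Fgfr3* and *Fabp7*, other genes known from SCs, were each found in 0 cells, while 175 of the 211 cells held at least 3 of 10 leukocyte genes (such as *Ptprc*, the CD45 gene) at that level. Other genes of the same 12-gene SC list were found more often, with *Cd44*, a hyaluronan receptor gene, in 127 cells, *Lfng* itself in 84, *Cdkn1b*, the p27Kip1 gene, in 62, *Emilin2* in 38 and *Jag1*, a Notch ligand gene, in 23. *Gata3* was at that level in 3 cells, and *Prox1* and *Gja1* in 2 each. At least 3 of the 12 were at that level in 52 cells. This count does not mark a cell as an SC. Cell_107 reached 3 through *Cd44*, *Emilin2* and *Cdkn1b* while it held all 10 leukocyte genes.

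A member counted as present in a cell at 10 or more reads. By that measure 26 of the 211 cells held at least 1 member (12.3%, exact 95% interval 8.21 to 17.5%). Most of these cells held a single member. One member was found in 17 cells, 2 members in 4 cells, 3 members in 2 cells, and 4, 6 and 7 members in 1 cell each, while 0 cells held more than 7. The values next to the threshold were 10 reads of *Tectb* in Cell_033 and, just below it, 9 reads of *Epcam* in Cell_216 and 9 of *Tectb* in capture 17c. At 1 or more reads, 95 cells (45%) held a member.

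**Figure D1:**
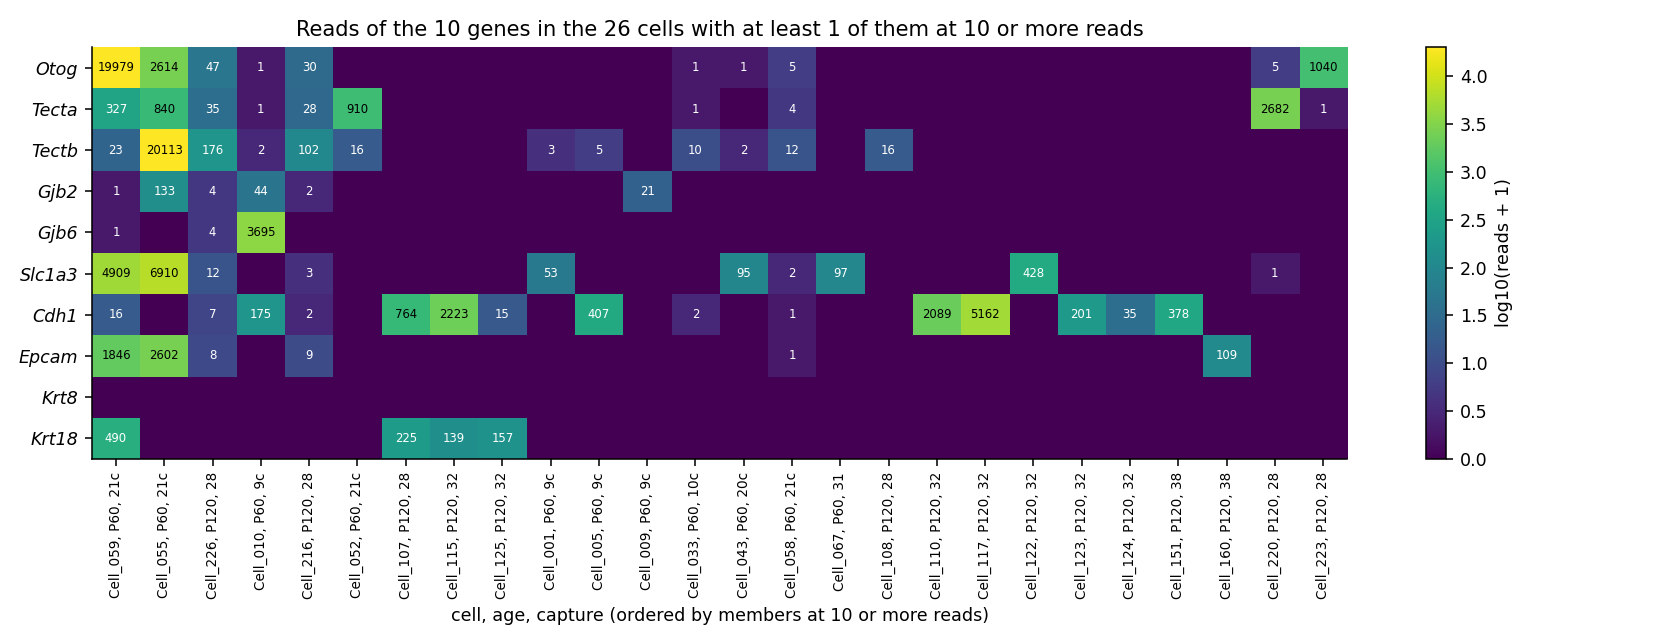
Reads of the 10 genes (rows, in log10(reads + 1) by color, with the read number printed) in each of the 26 cells (columns, with age and capture) that held at least 1 of them at 10 or more reads, ordered by the number of members. Cell_059 and Cell_055 held 7 and 6 members, the *Cdh1* reads lay mostly in other cells, and the row of *Krt8* is empty.

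The reads of most members came from 1 or 2 cells. *Otog* had 23749 reads, of which 84.1% were in Cell_059. *Tectb* had 20584 reads, of which 97.7% were in Cell_055, and *Gjb6* had 3705, of which 99.7% were in Cell_010. *Slc1a3* had 12523 reads with 94.4% in its top pair of cells, and *Epcam* had 4579 with 97.1% in its top pair. *Cdh1* was less concentrated, with 44.9% of its 11485 reads in its top cell, and it was the member found in the most cells, 11 of 211. *Krt8* had 0 reads in all 211 cells, which allows a share of cells with a read of up to 1.73% (exact interval). The pseudogene *Krt8-ps*, a near copy that could take its reads, also had 0. Whether reads that fit both copies were left uncounted was not tested.

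The tectorial genes were present together in a few cells. *Otog* was at 10 or more reads in 5 cells, *Tecta* in 6 and *Tectb* in 8, and the same 4 cells (Cell_055, Cell_059, Cell_216 and Cell_226) held all 3. These 4 were 80% of the *Otog* cells, 66.7% of the *Tecta* cells and 50% of the *Tectb* cells. *Otog* read 19979 in Cell_059, 2614 in Cell_055, 47 in Cell_226, 30 in Cell_216 and 1040 in Cell_223. *Tecta* read 327 in Cell_059, 840 in Cell_055, 35 in Cell_226, 28 in Cell_216, 910 in Cell_052 and 2682 in Cell_220. *Tectb* read 23 in Cell_059, 20113 in Cell_055, 176 in Cell_226, 16 in Cell_052, 16 in Cell_108, 12 in Cell_058 and 10 in Cell_033. In Cell_216 it stood at 506 CPM (reads per 1000000 reads on genes). The order of the trio thus differed between the cells, with *Otog* far above *Tectb* in Cell_059 and the reverse in Cell_055. Cell_059 counts for the trio through its 23 reads of *Tectb*. All 5 cells of its capture, 21c, had *Tectb* reads, with a median of 16. Cell_216 and Cell_226 also held most of the leukocyte genes, as given below. Outside the shared 4 the high values were of single genes, since Cell_223 held 1 read of *Tecta* and 0 of *Tectb*, and Cell_220 held 5 reads of *Otog* and 0 of *Tectb*.

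Of 9 other genes of tectorial and otic matrix, 2 followed the richest cells closely. *Otoa*, which encodes otoancorin at the attachment of such matrices, was at 10 or more reads in 2 cells only, with 465 reads in Cell_059 and 327 in Cell_055. *Col11a1*, a fibrillar collagen gene, read 2100 in Cell_059, 397 in Cell_055, 13 in Cell_226 and 10 in Cell_216, and at most 4 in any cell with fewer than 3 members. *Col9a2* was at 10 or more reads in 5 cells, all of which held a member, and *Col9a1* was at that level in Cell_059 with 326 reads. *Col2a1*, another fibrillar collagen gene, was at that level in 4 cells, all with a member, at 79 reads in Cell_001, 16 in Cell_226 and 14 each in Cell_055 and Cell_216. The other 4 genes were not found with the members in this way. *Otogl*, the otogelin-like gene, read 642 in Cell_215, which held no member at 10 reads, against 35 in Cell_059. *Col11a2* was at 10 or more reads in 4 cells, 0 of which held a member, and *Ceacam16* and *Col9a3* had 3 and 6 reads in all.

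The gap junction genes were rare. *Gjb2* was at 10 or more reads in 3 cells, with 133 reads in Cell_055, 44 in Cell_010 and 21 in Cell_009. *Gjb6* was at that level in Cell_010 only, with 3695 reads, and read at most 4 elsewhere. The connexin pair therefore met in 1 cell, which was not one of the cells with tectorial genes, since Cell_010 held 1 read of *Otog*, 1 of *Tecta* and 2 of *Tectb*. *Slc1a3* was present in 7 cells. Cell_055 had 6910 reads of it and Cell_059 had 4909. The other 5 held 428 (Cell_122), 97 (Cell_067), 95 (Cell_043), 53 (Cell_001) and 12 (Cell_226).

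The epithelial members split. *Epcam* went with the tectorial genes, with 2602 reads in Cell_055, 1846 in Cell_059 and 52.9 CPM in Cell_160, and between 0 and 9 reads in all other cells. *Cdh1* did not. Of its 11 cells, Cell_059 was the only one with *Epcam*, at 16 reads of *Cdh1*. *Krt18* was at 10 or more reads in 4 cells, 490 in Cell_059, 225 in Cell_107, 157 in Cell_125 and 139 in Cell_115, and all 4 also held *Cdh1*. As *Krt8*, its partner keratin, had 0 reads in all cells, whether the 2 keratin genes share cells could not be examined. Of 12 other epithelial genes, Cell_059 held 5 at 10 or more reads (*Esrp1* 786, *Cldn7* 47, *Spint2* 46, *Cldn3* 23, *Rab25* 11) and Cell_055 held 2 (*Spint2* 917, *Cldn6* 49). *Cldn4* had 0 reads in all cells, and *Ocln*, *Krt19* and *Spint1* had 2 each.

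*Cdh1* was found mostly in cells with basophil and mast cell genes. Of the 18 cells with at least 3 of 6 such genes (*Mcpt8*, *Prss34*, *Cpa3*, *Fcer1a*, *Ms4a2*, *Cd200r3*) at 10 or more reads, 9 held *Cdh1* (50%, exact 95% interval 26 to 74%), against 2 of the other 193 (1.04%, 0.126 to 3.69%). These 2 were Cell_010 and Cell_059. In the 9 cells *Cdh1* read 5162 (Cell_117), 2223 (Cell_115), 2089 (Cell_110), 764 (Cell_107), 407 (Cell_005), 378 (Cell_151), 201 (Cell_123), 35 (Cell_124) and 15 (Cell_125). Depth differed too, at a median of 1769606 reads on genes in the 18 cells against 660596. With every cell of 50000 or more reads thinned at random to 50000 reads, 8 of 17 cells of the first kind (47.1%) and 3 of 147 of the second (2.04%) kept a *Cdh1* read. Unthinned, 11 of the same 17 cells (64.7%) and 9 of the same 147 (6.12%) had 1. Of the 18 cells, 11 came from capture 32, 5 from capture 28, and 1 each from captures 38 and 9c, and *Cdh1* was present in 6, 1, 1 and 1 of them. Among genes at 10 or more reads in at least 5 cells, *Il4*, the interleukin 4 gene, and *Ms4a2*, a chain of the high-affinity IgE receptor, had the *Cdh1* values most like it over the 164 cells of 50000 or more reads (Pearson r of log2(CPM + 1) of 0.82 and 0.77). *Krt18* was also at 10 or more reads in 3 of the 18 cells and 1 of the 193.

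Cell_055 and Cell_059, both from the P60 capture 21c and run S047, held the most members. Per length, the highest level in Cell_055 was that of *Tectb* (8175 CPM per kb of exon), followed by *Epcam* (1841), *Slc1a3* (1257), *Otog* (392), *Tecta* (176) and *Gjb2* (85.8). In Cell_059 *Otog* was highest on the same scale (908 CPM per kb), followed by *Epcam* (396), *Slc1a3* (271), *Krt18* (160), *Tecta* (20.8), *Tectb* (2.83) and *Cdh1* (1.65). The 10 genes took 5.16% of the reads of Cell_055 and 1.30% of those of Cell_059. These were also the cells with the fewest leukocyte reads among the 26, 2 of 644039 and 6 of 2125161, and neither held any of the 10 leukocyte genes at 10 or more reads. *Ptprc* had 0 reads in Cell_055 and 1 in Cell_059. *S100a9*, among the most abundant neutrophil genes, had 5 and 19. Of 12 other SC genes, Cell_055 held *Jag1* (706 reads), the Notch ligand gene, and *Lfng* (69), and Cell_059 held *Cdkn1b* (783), the p27Kip1 gene, *Jag1* (221) and *Prox1* (77). *Lfng* had 2 reads in Cell_059. *Slc12a2*, a chloride cotransporter gene of the list for stria vascularis and outer sulcus, read 577 and 149. *Sox10* read 157 in Cell_059 and 0 in Cell_055. Of the 12 hair cell genes, both cells had 0 reads.

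**Figure D2:**
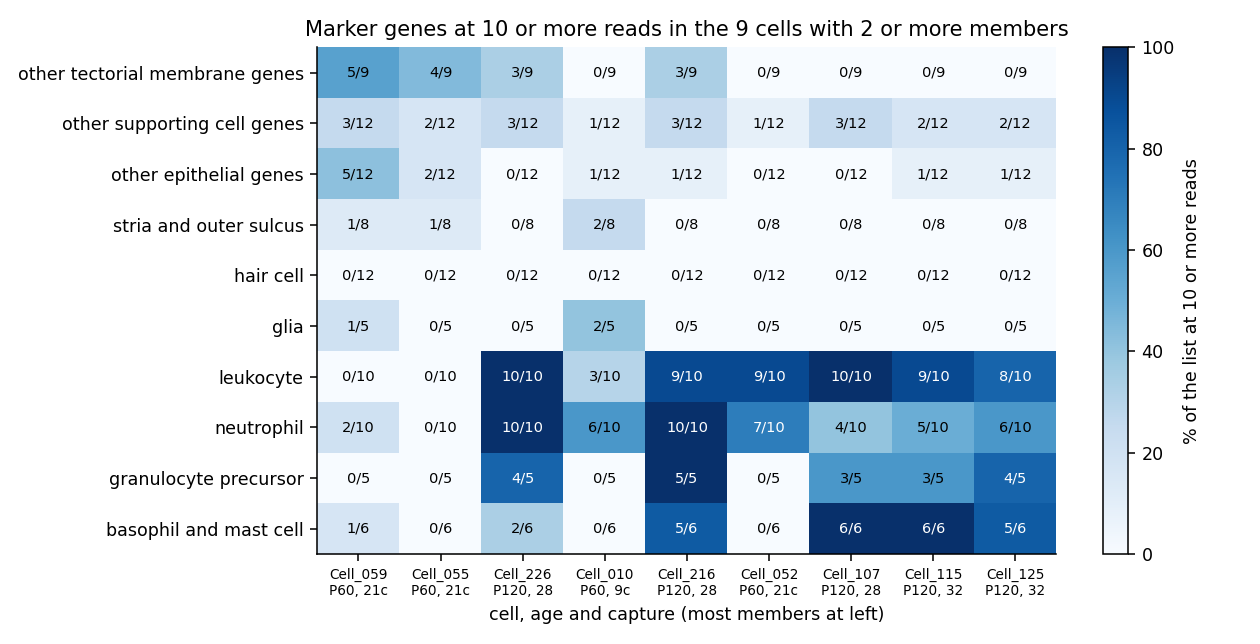
Number of genes at 10 or more reads out of each marker list (rows, colored by percent of the list) in the 9 cells with at least 2 members (columns, with age and capture). The leukocyte list is at 0 of 10 in Cell_055 and Cell_059 and between 3 and 10 of 10 in the other 7 cells, and the hair cell list is at 0 of 12 in all 9.

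The other 3 cells with at least 3 members differed from that pair and from each other. Cell_010 (P60, capture 9c) held *Gjb6*, *Cdh1* and *Gjb2*, and its leading genes against the other 210 cells included pigment cell genes, with 6275 reads of *Tyr* (tyrosinase, of melanin synthesis), 14468 of *Dct*, 3814 of *Gpnmb* and 2164 of *Slc45a2*. *Kcnj10*, a potassium channel gene used in the stria vascularis, read 1015 and *Slc12a2* read 1549. It also had 357 reads of *Tyrobp* and 2187 of *S100a9*. Cell_226 and Cell_216 (both P120, capture 28, run S059iso2) held genes of many kinds. They had the most genes detected of all cells, 6552 and 8065, from 43998 and 201535 reads. All 10 leukocyte genes were at 10 or more reads in Cell_226 and 9 of 10 in Cell_216, as were all 10 neutrophil genes in both. On log2(CPM + 1) over 15735 genes these cells had an r of 0.62 to 0.73 with the pooled cells of each run, against 0.15 to 0.29 for the other 3, where the points share their libraries and genes are not independent. The higher values, 0.67 for Cell_216 and 0.73 for Cell_226, were with S047, and both cells had 0.62 with each S059 run. Their part in the counts below was tested by leaving them out. Without Cell_216 and Cell_226, chosen after their values were seen, 24 cells held a member and 2 held all 3 tectorial genes, both from capture 21c. Of these 2, Cell_059 did so through 23 reads of *Tectb*, in a capture where all 5 cells had *Tectb* reads.

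**Figure D3:**
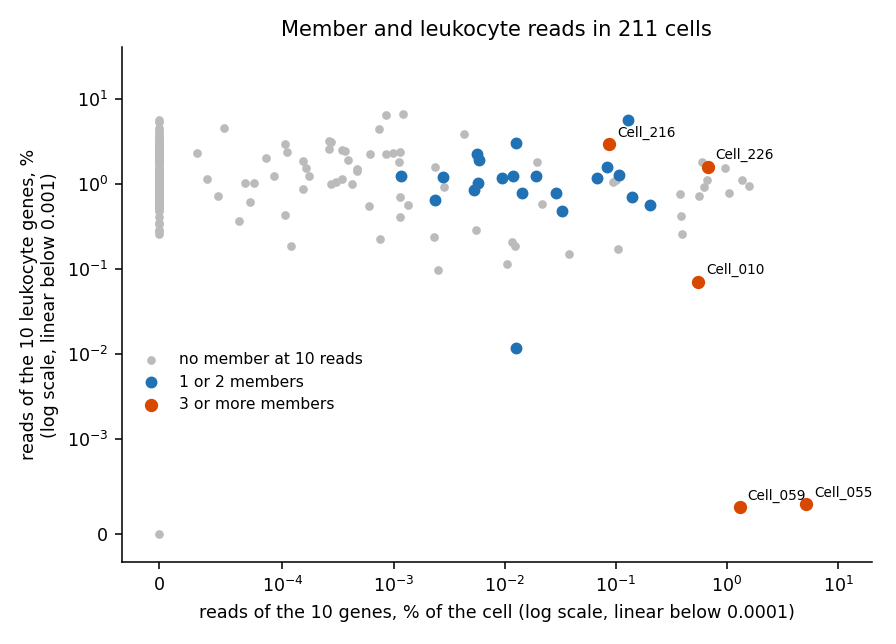
Reads of the 10 members (horizontal) against reads of 10 leukocyte genes (vertical), each in percent of the reads on genes of a cell, in 211 cells on log axes that are linear near 0. Cell_055 and Cell_059 lie at 5.16% and 1.30% of member reads with the fewest leukocyte reads of the 26 cells, while Cell_216 and Cell_226 lie at the leukocyte share of most cells.

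Over the 5 richest cells, 583 genes had 10 or more reads in at least 3 of them, and the 15 with the highest ratio of pooled CPM to the other 206 cells included 3 members (*Tectb*, *Otog*, *Slc1a3*). The first was *Dkk3*, of the Dickkopf family of secreted proteins, at 10 or more reads in all 5 cells (17369 in Cell_055, 7161 in Cell_059, 690 in Cell_010, 15 in Cell_226 and 12 in Cell_216) and in 0 of the other 206, where it read at most 7. *Sparcl1*, a secreted matrix glycoprotein gene, was also present in all 5, with 7077 reads in Cell_059, 3239 in Cell_010, 2912 in Cell_055 and 22 in each of the others. The remaining 10 were *Rnase1*, *Cpxm2*, *Plekhb1*, *Fam213a*, *Cep41*, *Kif21a*, *Col11a1*, *Fxyd3*, *Ckb* and *Cnn3*. Of these *Fxyd3* had 0 reads outside the 5 cells. For Cell_055 and Cell_059 alone, a pair taken after their values were seen, the leading genes included *Agr3* (4449 and 4775 reads), *Ptprf* (7081 and 191), *Pou3f3* (6792 and 308), a POU transcription factor gene, and *Cntn1* (55 and 6065). Per reads on genes, *Agr3* stood at 6908 CPM in Cell_055 and 2247 in Cell_059, and *Stxbp6* at 6638 and 1279. The others named lay further apart, with *Ptprf* at 10995 and 89.9 CPM, *Pou3f3* at 10546 and 145, and *Cntn1* at 85.4 and 2854. As these cells were chosen by their member reads, the ratios are a description. Over 164 cells, *Dkk3* was among the genes most like *Otog* (r = 0.71), *Tectb* (0.71), *Tecta* (0.63) and *Gjb2* (0.76). *Plekhb1* was among those most like *Slc1a3* (0.73) and *Epcam* (0.81). Closer genes were *Col9a2* for *Tectb* (0.76), *Tectb* for *Tecta* (0.66) and *Srebf1* for *Gjb2* (0.78). Each of these correlations rests on 3 to 7 cells with the member at 10 or more reads. The 164 cells include all of the 5 richest except Cell_226. The values therefore largely follow from the choice of those cells and are not separate evidence. Other genes led for *Gjb6*, *Cdh1* and *Krt18*, and *Krt8* had no reads.

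Most cells with a member held leukocyte genes. Of the 26 cells, 23 held at least 3 leukocyte genes at 10 or more reads (88.5%, exact 95% interval 69.8 to 97.6%), with Cell_055, Cell_059 and Cell_033 as the exceptions. The share of cells with a member was 13.1% of the 175 cells with 3 leukocyte genes (8.52 to 19.1%) and 8.33% of the other 36 (1.75 to 22.5%). Depth enters both criteria, since a cell with few reads can rarely reach 10 reads of a member or of 3 leukocyte genes. Across all cells, 33 held under 10000 reads, while Cell_055, Cell_059 and Cell_033 held 644039, 2125161 and 110984. These shares are therefore not read as alike or different. Cell_052, from the same capture as the richest pair, read 910 for *Tecta* and 16 for *Tectb* beside 16330 for *Ptprc* and 42178 for *S100a9*. Cell_223, with 1040 reads of *Otog*, had 271507 of *S100a9*, and Cell_220, with 2682 of *Tecta*, had 108952. Whether such cells hold RNA of more than 1 cell was not tested. By presence of *Lfng*, 16 of 120 cells with a *Lfng* read (13.3%, 7.82 to 20.7%) and 10 of 91 cells without one (11%, 5.40 to 19.3%) held a member.

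Low reads followed the sequencing run. In run S047, 53 of 55 cells (96.4%) had at least 1 read of a member, against 22 of 68 (32.4%) in S059iso1 and 20 of 88 (22.7%) in S059iso2. *Tectb* made up most of the difference. Between 1 and 9 *Tectb* reads were found in 43 of the 55 cells of S047 (78.2%), in 0 of the 68 of S059iso1 and in 6 of the 88 of S059iso2. *Tecta* was at 1 to 9 reads in 25 cells of S047 and *Otog* in 16, against 1 and 0 in S059iso1 and 4 and 5 in S059iso2. S047 is also the run of Cell_055 and Cell_059, which held 20113 of its 20280 *Tectb* reads and 19979 of its 22616 *Otog* reads respectively. The low *Tectb* reads did not scale with depth. In capture 10c, with a median of 451 reads per cell, 12 of 13 cells had a *Tectb* read and the median was 3, while captures 9c, 17c, 19c and 20c had medians of 1 to 2 at 585053 to 987406 reads per cell. Capture 21c had a median of 16 *Tectb* reads over its 5 cells. Of the P60 cells on the S059 runs, 7 of 47 (14.9%) had a read of a member. A source of the low reads outside the cell was not tested, and shares at 1 read are not compared between ages for that reason. Thinned to 50000 reads, 33 of 164 cells (20.1%) kept a member read, against 44.5% unthinned, and of the 25 cells with a member at 10 or more reads among them 24 did.

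**Figure D4:**
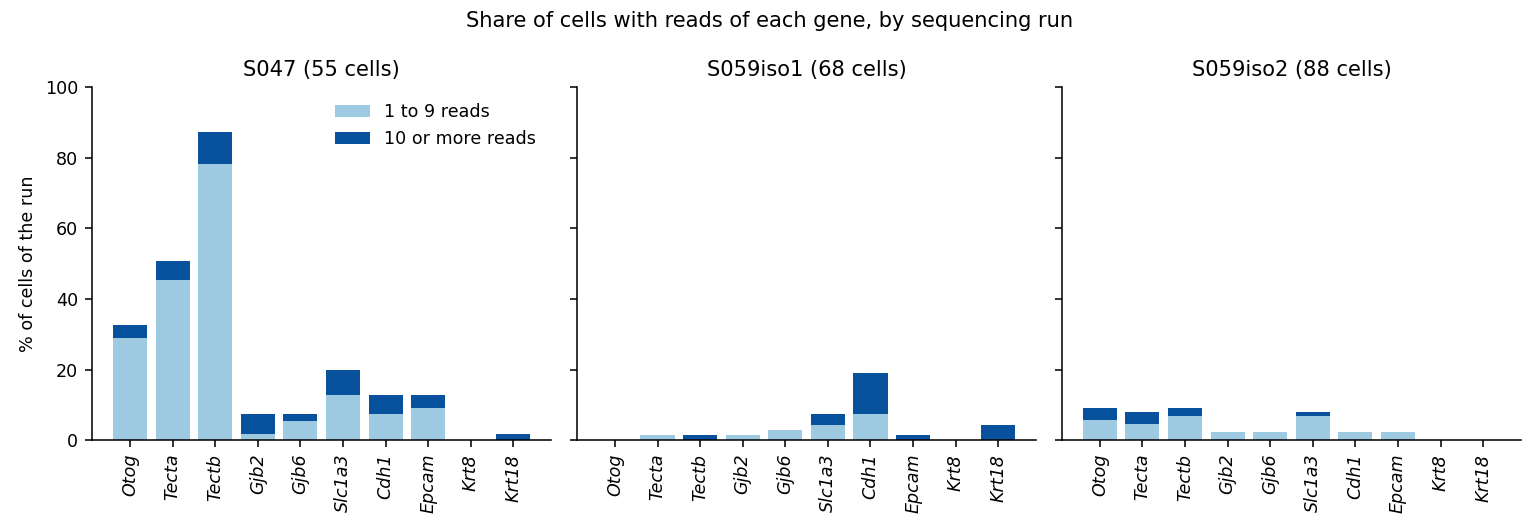
Percent of the cells of each sequencing run (panels) with 1 to 9 reads (light) or 10 or more reads (dark) of each member. *Tectb* is at 1 to 9 reads in 78.2% of the cells of S047 and 0% and 6.82% of those of the S059 runs, and the tallest dark part is that of *Cdh1* in S059iso1.

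Captures differed widely in their share of cells with a member at 10 or more reads. It was 4 of 5 cells in capture 21c (80%), 4 of 19 in 9c (21.1%), 1 of 8 in 20c (12.5%), 1 of 13 in 10c (7.69%), 1 of 23 in 31 (4.35%) and 0 in 17c, 19c and 40 at P60. At P120 it was 7 of 27 in capture 32 (25.9%), 6 of 37 in 28 (16.2%), 2 of 29 in 38 (6.90%) and 0 of 16 in 36. Cell_058 of 21c and Cell_033 of 10c counted only through 12 and 10 reads of *Tectb*. Both were on run S047, where 78.2% of the cells had 1 to 9 *Tectb* reads. The mean share was 15.7 ± 27% at P60 (SD, n = 8 captures) and 12.3 ± 11.3% at P120 (SD, n = 4 captures), so the difference between the ages was far smaller than the spread between captures. Its direction rested on single captures. The P60 mean was 6.51 ± 7.96% without 21c (SD, n = 7 captures), the difference of P120 minus P60 went from -3.44 to 5.75 percentage points without 21c and to 0.65 without 36, the medians over captures were 6.02% at P60 and 11.6% at P120, and the shares of all cells were 10.8% and 13.8%. Tectorial genes came from captures 21c, 28 and 10c, while the P120 cells with *Cdh1* came mostly from capture 32.

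To compare the ages, reads were summed per capture and tested with edgeR's quasi-likelihood test over 8346 genes, of which 10 (0.120%) passed an adjusted p of 0.05. Only 4 members (*Tecta*, *Tectb*, *Slc1a3*, *Cdh1*) had enough reads in enough captures to be tested, and 0 of these 4 passed. An unadjusted p under 0.05 was found for 2 of the 4 and for 443 of all genes tested (5.31%), and DESeq2 called 8 genes of all tested and returned no p-value for any of the 4. At P60 *Tectb* stood at 4317 CPM in 21c and 327 in 10c, which held 119240 reads in all and at most 10 of *Tectb* per cell. *Tectb* stood at 1.61 to 4.24 in 9c, 17c, 19c and 20c, and at 0.176 and 0 in 31 and 40. At P120 it stood at 6.71 CPM in capture 28, 0.03 in 32 and 0 in 36 and 38. The 6 captures of run S047 were above all but capture 28 of the others. The log2 ratio of P120 to P60 was -9.14 (SE 2.33, edgeR adjusted p = 0.0532), and -15.16 without capture 28. This call turned on single captures and cells, with an adjusted p of 0.0294 without capture 17c, 0.0176 without 28, 0.0054 without Cell_216 and Cell_226, and 0.411 without 36. All P60 captures with more than 1 CPM of *Tectb* were on run S047, which held no P120 cells, so age and run cannot be told apart for it, and it was not tested among the captures of the S059 runs alone because its reads did not pass the filter there.

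*Slc1a3* stood at 2531 CPM in capture 21c, at 0 to 14.2 in the other P60 captures and at 0 to 12.8 at P120, so that the ages overlap outside 21c. Its log2 ratio of P120 to P60 was -6.92 (SE 2.29, edgeR adjusted p = 0.32) and -0.50 (adjusted p = 1) without capture 21c. Without capture 32 it was -11.02, and DESeq2 gave -0.68 on the same sums, so the size of this ratio is not settled. *Tecta* stood at 0 to 445 CPM at P60 and 0 to 62.1 at P120, with a log2 ratio of -2.90 (SE 2.23, edgeR adjusted p = 1) that was -13.44 without capture 28 and -1.35 without 21c. *Cdh1* stood at 44.1 CPM in 9c, 25.2 in 10c (3 reads), 3.64 in 21c and at most 0.0248 in the other 5 P60 captures, against 291 in 32, 17.6 in 28, 14.4 in 38 and 0.11 in 36 at P120. It was higher in 3 of the 4 P120 captures than in 6 of the 8 P60 captures, with a log2 ratio of 2.31 (SE 2.13, edgeR adjusted p = 1) that turned to -0.46 without capture 32. In a sum over a capture, fewer cells with a gene and fewer reads per cell cannot be told apart. Of the other lists, 0 of the 5 basophil and mast cell genes tested and 0 of the 10 leukocyte genes tested passed, with median log2 ratios of 3.59 and 0.18.

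GFP did not set the cells with members apart in 1 direction. Their normalized GFP intensity, a value per cell in the deposited cell table with a maximum of 1000, had a median of 209 (50 to 1000, n = 26) against 370 (31 to 1000, n = 185) in the other cells. The brightest cell stood at 1000 in captures 10c, 17c, 20c, 21c, 28, 31, 32, 36, 38 and 40. Whether the score was scaled within each capture was not tested, so values pooled over captures may not compare brightness. The richest 5 had 1000 (Cell_055), 993 (Cell_216), 597 (Cell_059), 202 (Cell_226) and 129 (Cell_010). Cell_055 was the brightest of the 5 cells of its capture, while Cell_010 ranked 16 of 19 in its own. Within captures, cells with a member were brighter on average in 20c (1000 against 244), 21c (769 against 384), 38 (696 against 394) and 28 (430 against 363), and dimmer in 32 (91.7 against 638), 9c (166 against 340), 10c (249 against 467) and 31 (191 against 388). The mean difference over the 8 captures with both kinds of cell was 46.7 ± 416 (SD), higher in 4 and lower in 4 (exact two-sided sign-flip permutation test over captures, p = 0.766, adjusted p = 0.766 over 2 tests). In run S047 the mean difference was 187 over 4 captures (exact permutation p = 0.625), and in the S059 runs -93.6 over 4 (exact permutation p = 0.75), where the smallest p that 4 captures allow is 0.125. All 7 positive cells of capture 32 ranked 19 to 26 of its 27 cells in GFP, and 6 of them held *Cdh1*. Pooled over captures, the median GFP of the 18 cells with basophil and mast cell genes was 112, against 370 in the other 193. Of these 18 cells, 11 came from capture 32. The 4 positive cells of 21c had 1000, 822, 656 and 597, against 384 in the fifth.

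**Figure D5:**
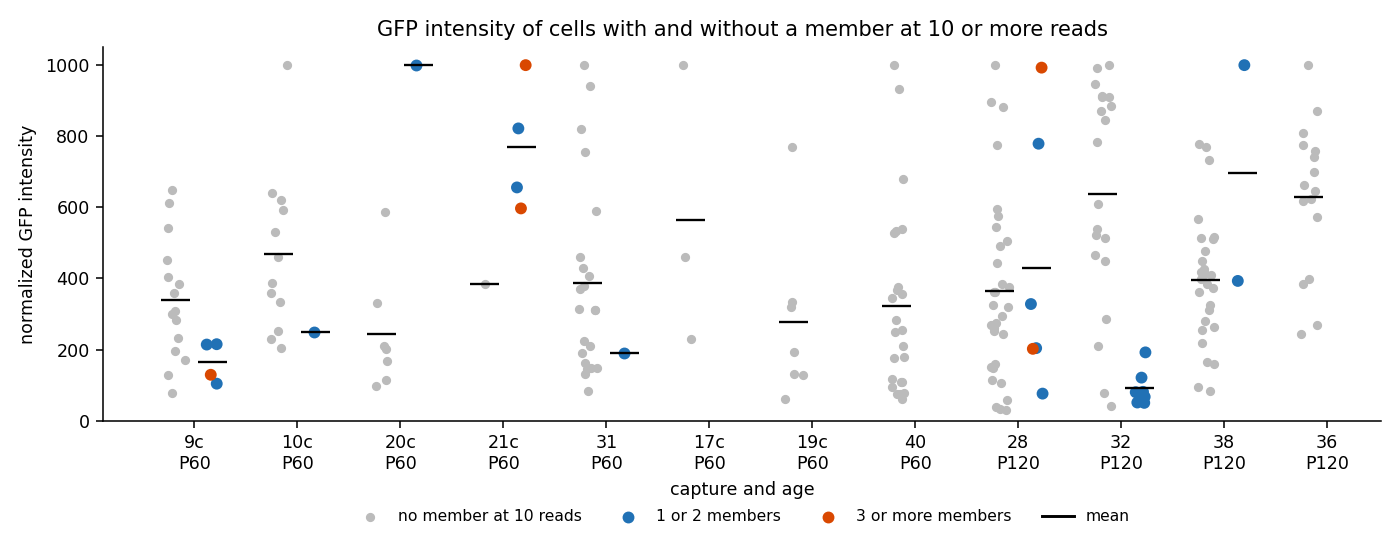
Normalized GFP intensity (vertical) of each cell by capture and age (horizontal), with gray points for cells with no member at 10 or more reads, blue for 1 or 2 members, orange for 3 or more, and lines at the means. The cells with a member lie above the mean of the others in captures 20c, 21c, 28 and 38 and below it in 9c, 10c, 31 and 32.

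The cells with a member had a median of 1560644 reads on genes against 656510 in the other cells. A threshold of 10 reads is met more easily in deep cells, so this difference is given as a description with no test. The within-capture difference in mean log10 reads was 0.76 ± 0.76 (SD, n = 8 captures) and ranged from 0.04 in capture 21c to 2.39 in 10c, where the positive cell held 110984 of the 119240 reads of the capture. It was -0.04 with a minimum of 1 read, and 0.17 over 7 captures among cells of 50000 or more reads. All but 1 of the 26 cells held at least 50000 reads.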

How the data were processed

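Adult cochlear cells sorted for GFP were captured on the Fluidigm C1. Per the paper's methods, the authors aligned the reads of each cell with STAR to GRCm38 (mm10 in the submitters' processing notes), with annotation vM11, and removed outliers and cells with endothelial transcripts. They deposited raw read counts per gene without molecular identifiers, together with a normalized GFP intensity, a score whose origin and scaling are not given in the sources used here. Gene identifiers were matched to symbols for 48349 of 48709 genes, and positions came from GENCODE vM21 on the same build. The 92 spike-in entries were left out of all totals.

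The members and gene lists were chosen with earlier results of these data known. The named genes are the 10 members, list genes at 10 or more reads in a richest cell (at least 3 members), the 15 genes with the highest CPM ratio in those cells (prior of 1 CPM), and the 2 genes most like each member. Promoter windows were read for 9 members from RefSeq. Counts were summed per capture and tested with edgeR 4.0.16 (TMM, filterByExpr, quasi-likelihood, Benjamini-Hochberg at 0.05) in R 4.3.3, with DESeq2 1.42.0 as the alternative, after a trial on simulated data. GFP was compared within captures by exact sign-flip permutation. The same test was run on depth, but its p is not used because the 10-read minimum depends on depth. Intervals are 95% Clopper-Pearson and cover counting error only. The study lists a pool of mice for each isolation, so p-values measure the spread between captures of pooled mice, not between single mice. Python 3.11.15, numpy 2.4.6, pandas 2.3.3, scipy 1.17.1 and matplotlib 3.10.9 were used, with random seed 20. No doublet caller was run.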

Additional observations from a re-analysis of the deposited data

Results flagged for a closer look

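In groups of 4 to 8 captures, a single capture lay far from the others of its age in 16 of 22 groups of values examined. The gap to the nearest capture was set against the whole range, with Dixon's 95% critical value. Chance alone passes that value in about 1 group in 20 where values are independent and normally distributed. Most of these groups hold several captures at or near 0, and many share the same few cells. The 16 of 22 are therefore not read against that rate. At P60, capture 21c stood apart in the share of cells with a member (80%) and in the CPM of *Otog* (4838), *Tecta* (445.5), *Tectb* (4317), *Gjb2* (28.69), *Slc1a3* (2531), *Epcam* (952.4) and *Krt18* (104.9). It held 5 cells, and Cell_055 and Cell_059 gave most of these reads. Capture 9c stood apart for *Gjb6* at 279.5 CPM, from Cell_010. Capture 10c stood apart in depth, where its cell with a member exceeded the mean of the others by 2.39 in log10 reads. At P120, capture 28 stood apart for *Otog* (25.57 CPM), *Tecta* (62.08) and *Tectb* (6.709). Capture 32 stood apart for *Slc1a3* (12.85) and *Cdh1* (291.3), and capture 38 for *Epcam* (4.165).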

How the results depend on the processing

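The count of 26 cells with a member was within 1.5 times of that value under 28 of 30 alternatives, and moved to 95 and 44 cells with a minimum of 1 and 3 reads. Most of the 30 leave out 1 gene or 1 capture, which can only lower the count. The 28 therefore say little about how the count depends on the read minimum. Leaving out captures gave 19 to 26 cells. The number of members called between the ages was 0, and 1 without Cell_216 and Cell_226 (an alternative added after the data were seen). Leaving out captures gave 0 to 1, and the member called was *Tectb* each time. *Slc1a3* turned to a log2 ratio of 0.69 with only the captures of the S059 runs, and *Cdh1* to -0.46 without capture 32, in a range of -0.46 to 3.76 over the captures left out. The mean GFP difference turned negative with a minimum of 1 read (-139, exact permutation adjusted p = 0.0547), with at least 2 members (-63.5), within the S059 runs (-93.6, added later), without 20c (-54.7) and without 21c (-1.64). Leaving out captures gave -54.7 to 131, none past the threshold. The share of cells with a member, P120 minus P60, was -7.99 to 5.75 percentage points over the captures left out, an alternative added after the data were seen. The depth difference was -0.04 with a minimum of 1 read, 0.17 in cells of 50000 or more reads, and 0.80 and 0.73 within run S047 and within the S059 runs. Leaving out captures gave 0.53 to 0.86. The causes of these shifts were not tested. Without a filter on low counts, edgeR called 22 of 27484 genes, against 10 of 8346 with it. With the thinned cells it called 0 of 4747 (200 at an unadjusted p under 0.05), and in the captures of the S059 runs 2 of 11276. Leaving out captures gave 1 to 16 calls. No paired analysis was possible because the captures carry no shared numbers. Depth limits what 0 reads can say in capture 10c and in the 33 cells under 10000 reads.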
